A study of Homo sapiens with 6 samples.

Results

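The genes described here were listed for a part in how long the REST protein lasts in the cell. They are the beta-TrCP ubiquitin ligase paralogs BTRC and FBXW11, the deubiquitinases USP7 and USP15, the small phosphatases CTDSP1, CTDSP2 and CTDSPL, the kinase CSNK1A1 and, grouped with them by the list, the ubiquitin ligase HUWE1. They were chosen by name, as the 9 members of a fixed list, and taken from the probe sets that carry a single gene symbol, where several shared a symbol by the highest mean signal. All 9 were measured, each by 1 probe set, out of 18417 gene symbols tested. The arrays came from neural stem cells (NSCs), dividing precursors of neurons and glia, made from SA-01, a human embryonic stem cell line, and used at passage 14. They grew on polyornithine and laminin. Control cells received DMSO, the solvent, at 0.1%, and treated cells X5050 at 100 µM, from 5 h after plating and for 24 h. Each treatment had 3 arrays, and the 3 independent cultures each gave a DMSO and an X5050 sample. All samples came from the same embryonic line, so the cultures do not sample different donors. The protein itself was not measured on these arrays.

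REST is a zinc finger repressor that binds RE1 elements and keeps neuronal genes low in stem cells and non-neuronal tissue. Its protein is short-lived in neural progenitors: casein kinase 1 phosphorylates degron sites near its C-terminus, beta-TrCP recognises them as part of an SCF complex (SKP1, CUL1, RBX1 and an F-box protein), and the ubiquitinated protein goes to the proteasome. Deubiquitinases and the small phosphatases act the other way, by removing ubiquitin or the phosphates that favour degradation. The series title calls X5050 a REST inhibitor. The comparison asks whether transcripts of this turnover machinery differed between X5050 and DMSO.

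The 6 arrays had median log2 signals between 5.68 and 5.75, which normalization brings close by design. Of 10 neural stem cell markers 7 stood above the upper quartile of every array (SOX2, PAX6, NES, MSI1, VIM, FABP7 and SOX9), while SOX1 and HES1 did so on 0 arrays and HES5 on 1. Of 5 pluripotency markers 2 were measured. LIN28A stood above the upper quartile on 0 arrays, while DPPA4 too stood above that of every array. Of 9 measured neuronal markers 7 did so as well, among them STMN2 and MAP2, while RBFOX3 and ELAVL4 did so on 0 arrays. Markers of mesenchymal cells were unequal between cultures, with a summed log2 signal of 10.84 to 12.79 with DMSO and 10.68 to 12.13 with X5050. In such bulk samples fewer cells of a type and less RNA per cell cannot be told apart.

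None of the 9 turnover genes passed the test for a change with X5050. With each X5050 sample set against the DMSO sample of its own culture, 0 of 9 had an adjusted p under 0.05 in limma, where 0.498% of the 19460 tested probe sets did (37 rose and 60 fell). At an unadjusted p under 0.05 there was 1 member in limma, HUWE1, beside 14.5% of all probe sets. The log2 changes ran from -0.15 for CTDSPL to 0.27 for HUWE1, 4 above and 5 below 0. Their median was -0.0066, where the median of all tested genes was 0.0094. The arrays of the 2 treatments did not overlap for 0 of the 9, against 14.9% of all probe sets. The 95% intervals of the changes are not adjusted for the number of genes. Like the SEs, they are limma's moderated ones, which draw each gene's variance towards that of all probe sets. In that form all 9 stayed inside a 1.5-fold change in either direction. The widest reach was 1.40-fold, for HUWE1. The fit has 2 residual degrees of freedom per gene, and intervals from a gene's own 3 cultures alone were not computed. Single cultures could lie outside the moderated interval, as for BTRC (-0.25 and 0.35, against -0.23 to 0.32). Those of FBXW11 (-0.039 to 0.024) stayed well inside theirs. Without the pairing by culture limma called 0 of 19460 probe sets, with 1824 (9.37%) at an unadjusted p under 0.05, and none of the 9 members was among either. Without culture 3 the paired fit also called 0, and without culture 1 it called 346, with no member past the threshold in either case.

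**Figure D1:**
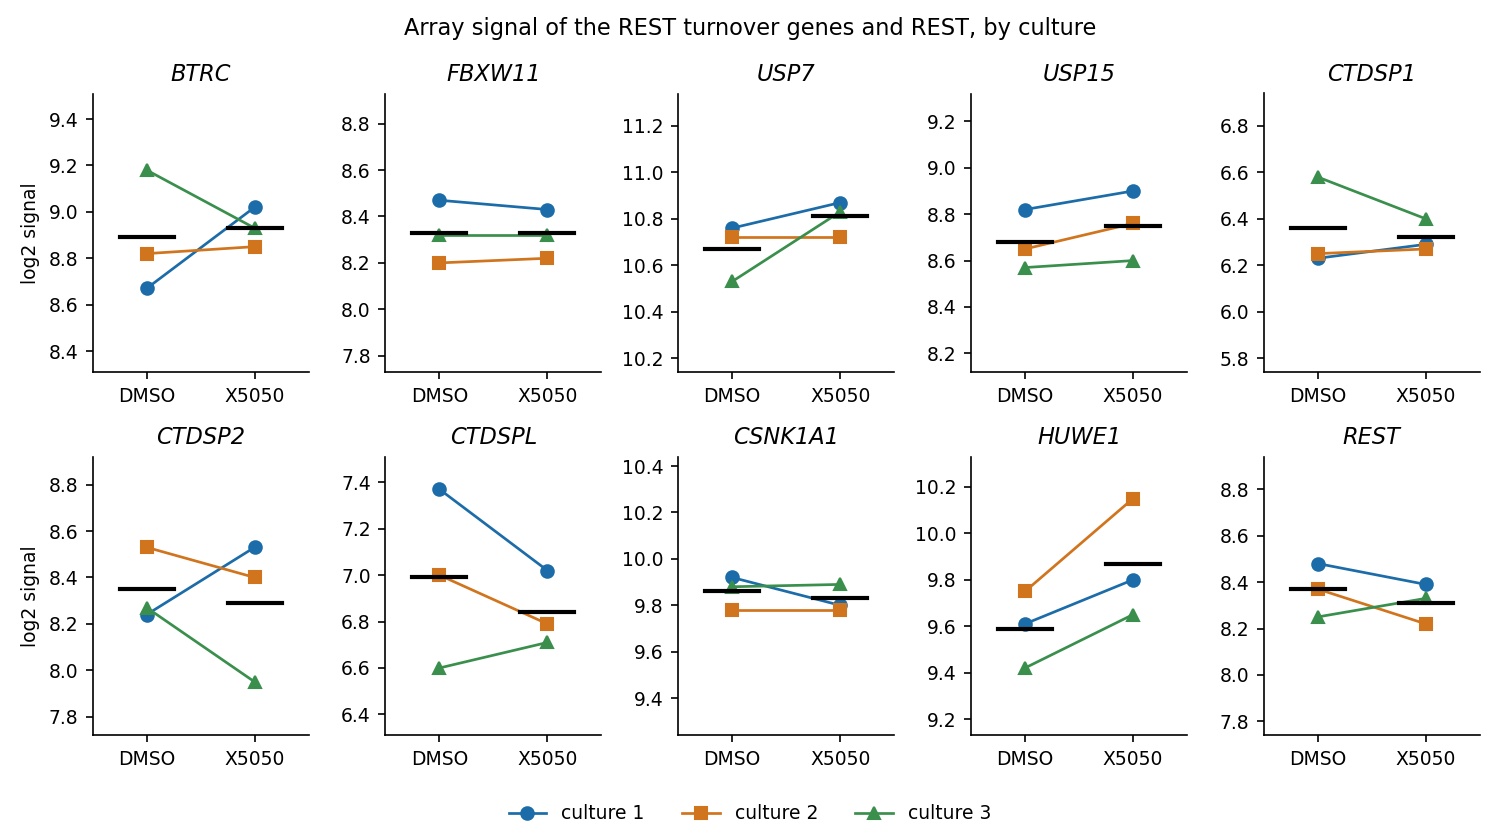
Log2 signal of each of the 9 turnover genes and of REST in the 3 DMSO and 3 X5050 arrays, with a line joining the arrays of a culture and a black bar at the mean of each treatment. Each panel spans 1.2 log2 units around the gene's own mean, and HUWE1 and USP15 are the members whose 3 lines all point up.

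Neither gene for the F-box proteins that select REST for ubiquitination passed the test, and both had changes near 0. BTRC, which encodes beta-TrCP1, had log2 signals of 8.67, 8.82 and 9.18 with DMSO and 9.02, 8.85 and 8.93 with X5050 in cultures 1, 2 and 3. The X5050 values lay inside the range of the DMSO values, and the cultures went opposite ways, by 0.35, 0.032 and -0.25. The mean change was 0.045 (SE 0.12, n = 3 cultures, adjusted p = 0.918 in limma). Without culture 1 it stood at -0.11, so its sign rests on that culture. FBXW11, which encodes the close paralog beta-TrCP2, was steadier, at 8.47, 8.20 and 8.32 with DMSO and 8.43, 8.22 and 8.32 with X5050. Every culture kept its place in the order, and none moved by more than 0.039. Its change was -0.0066 (SE 0.086, 95% interval -0.20 to 0.19, adjusted p = 0.985 in limma), and quantile normalization turned the sign (0.020).

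The rest of the SCF complex and the pathway that attaches NEDD8 to its cullin gave 0 genes past the threshold of 13 measured. Of these 7 were above and 6 below 0, around a median of 0.018. The genes with the smallest p were UBA3, the catalytic subunit of the NEDD8-activating enzyme (0.24, SE 0.093), the cullin exchange factor CAND2 (0.18, SE 0.089) and RBX1, the RING subunit that recruits the ubiquitin-conjugating enzyme (-0.18, SE 0.096). Their adjusted p lay between 0.285 and 0.457 in limma. Of 9 other measured genes, WD40 F-box proteins with SKP2 and CCNF, 0 passed. SKP2, the F-box protein of the cell cycle inhibitor p27, was lower in each culture (-0.24, -0.30 and -0.12) with all X5050 values below all DMSO values, at an adjusted p of 0.307 in limma. CCNF, the cyclin F-box protein, stood at -0.19 and FBXW2 at 0.15.

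The deubiquitinases were both slightly higher with X5050, by less than the test could call. USP7, known to remove ubiquitin from REST and so to oppose beta-TrCP, had log2 signals of 10.76, 10.72 and 10.53 with DMSO and 10.87, 10.72 and 10.83 with X5050. Culture 3, with the lowest DMSO value, carried most of the difference, while culture 2 hardly moved (0.11, -0.0035 and 0.30). The mean change was 0.14 (1.10-fold, SE 0.096, 95% interval -0.085 to 0.36, adjusted p = 0.604 in limma). Without culture 3 it was 0.055. USP15, known to act on newly made REST, had 8.82, 8.65 and 8.57 with DMSO and 8.90, 8.76 and 8.60 with X5050. Each culture was a little higher with the compound (0.084, 0.10 and 0.033), which 18.0% of all probe sets also were, and the treatments overlapped. The change was 0.073 (1.05-fold, SE 0.086, adjusted p = 0.784 in limma). Both kept a positive sign under every alternative run.

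Related deubiquitinases gave 0 of 9 past the threshold, 6 above and 3 below 0, with a median of 0.12. USP28, a deubiquitinase of MYC, stood at 0.21 (SE 0.099), USP40 at 0.17 (SE 0.10), and USP47, the closest paralog of USP7 in this list, at 0.14 (SE 0.089). Of the 9, USP28 and USP47 had all X5050 values above all DMSO values, where 14.9% of all probe sets did not overlap in either direction. Their adjusted p in limma was 0.390 and 0.564.

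**Figure D2:**
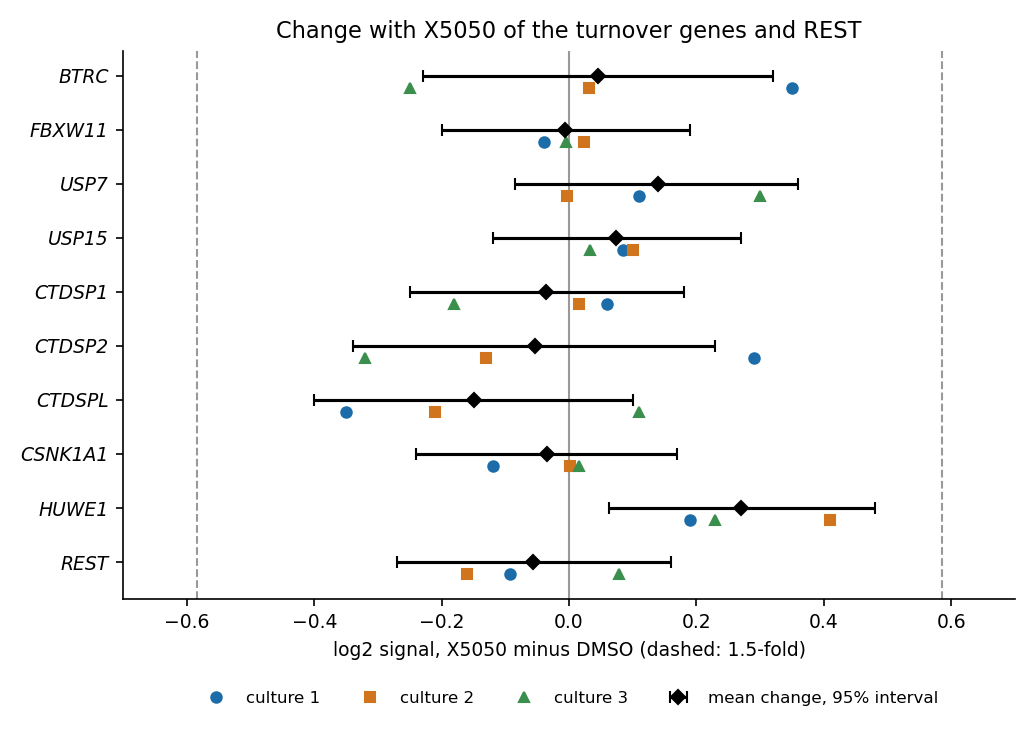
Difference in log2 signal, X5050 minus DMSO, for the 9 turnover genes and REST, as the mean with its 95% interval from the paired limma fit (diamonds and bars) and in each culture (coloured points). No interval, with its variance moderated over all probe sets, reaches the dashed lines at 1.5-fold. The interval of HUWE1, from 0.063 to 0.48, is the one that leaves out 0.

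The small phosphatases are related enzymes that dephosphorylate the C-terminal domain of RNA polymerase II and serve as REST cofactors. CTDSP1 also removes phosphates from REST itself, which stabilises it. CTDSP1 had log2 signals of 6.23, 6.25 and 6.58 with DMSO and 6.29, 6.27 and 6.40 with X5050. Culture 3 was the highest under either treatment and the treatments overlapped, with a change of -0.036 (SE 0.093, adjusted p = 0.913 in limma). CTDSP2 had 8.24, 8.53 and 8.27 with DMSO and 8.53, 8.40 and 7.95 with X5050, and the cultures split by 0.29, -0.13 and -0.32. The mean change was -0.053 (SE 0.12, adjusted p = 0.901 in limma). Without culture 3 both turned sign, to 0.037 for CTDSP1 and 0.080 for CTDSP2.

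CTDSPL had the widest spread between cultures of the 9 members (SD of the culture means 0.27). Its log2 signals were 7.37, 7.00 and 6.60 with DMSO and 7.02, 6.79 and 6.71 with X5050, with the same order of cultures under both. The change was -0.15 (1.11-fold, SE 0.11, 95% interval -0.40 to 0.10, adjusted p = 0.612 in limma), and it was -0.051 without culture 1. The summed mesenchymal markers had the same order with DMSO, at 12.79, 11.31 and 10.84 in cultures 1, 2 and 3, and with X5050, at 12.13, 10.78 and 10.68. That sum is of linear signals, so bright markers weigh most. By mean over both treatments only ACTA2 (11.46, 10.16 and 9.25) and TAGLN (8.65, 6.74 and 5.49) had this order. The remaining markers, among them LUM (8.95, 7.13 and 7.77), were higher in culture 3 than in culture 2. The part of such markers in the CTDSPL signal was not tested. On the arrays CTDSP1 and CTDSPL lay between the median and the upper quartile, and the other 7 members above the upper quartile of every array. Signals of different probe sets give no order of transcript abundance.

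Each of these phosphatase genes also carries a microRNA of the miR-26 family within its span, known to be processed from an intron, and the arrays hold separate probe sets for the 3 hairpins. The mature sequences from RefSeq (GRCh38.p14), all 3 matched by symbol, are shown because the 5p arms share their seed, so that the family reads the same target sites whichever host gene supplies it. The hairpins are MIR26B at chr2:218402646-218402722 (plus strand, within CTDSP1), MIR26A2 at chr12:57824609-57824692 (minus strand, within CTDSP2) and MIR26A1 at chr3:37969404-37969480 (plus strand, within CTDSPL). Capitals mark the seed, bases 2 to 8 from the 5′ end.
hsa-miR-26a-5p: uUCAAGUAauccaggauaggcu
hsa-miR-26b-5p: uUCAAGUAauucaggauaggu
hsa-miR-26a-1-3p: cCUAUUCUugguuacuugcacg
hsa-miR-26a-2-3p: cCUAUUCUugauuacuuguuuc
hsa-miR-26b-3p: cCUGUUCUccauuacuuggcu

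Compared base by base from the 5′ end, the 26a and 26b 5p arms differ at C11U and C21U. The 26a arm is also longer, at 22 nt against 21 nt. These differences lie outside the seed. MIR26A1 and MIR26A2 make the same 5p arm, and their 3p arms share the seed CUAUUCU where 26b-3p has CUGUUCU. The hairpin probe sets do not separate the arms. MIR26B had log2 signals of 4.73, 4.59 and 4.86 with DMSO and 4.84, 4.92 and 4.99 with X5050, below the median of every array. It was higher in each culture (0.11, 0.33 and 0.12), with a change of 0.19 (SE 0.093, adjusted p = 0.415 in limma), while its host CTDSP1 stood at -0.036. MIR26A2 (-0.062, SE 0.087) and MIR26A1 (0.0053, SE 0.093) were below the lower quartile of every array, so a change could be compressed there. Whether hairpin and host gene differed in their response was not tested.

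Other phosphatases of this kind gave 0 of 8 past the threshold, 4 above and 4 below 0, with a median of -0.020. TIMM50, a mitochondrial import subunit with a phosphatase-like domain, was lower in each culture (-0.18, -0.42 and -0.10; change -0.23, SE 0.098, adjusted p = 0.324 in limma). The polymerase phosphatase CTDP1 stood at -0.12 and UBLCP1, which acts on the proteasome, at 0.068.

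CSNK1A1, the casein kinase 1 alpha that phosphorylates degrons read by beta-TrCP in several proteins, varied least of the 9 members. Its log2 signals were 9.92, 9.78 and 9.88 with DMSO and 9.80, 9.78 and 9.89 with X5050, a range of 0.14 over all 6 arrays. The change was -0.034 (SE 0.088, 95% interval -0.24 to 0.17, adjusted p = 0.914 in limma) and came from culture 1 (-0.12, against 0.0013 and 0.015). Without culture 1 it was 0.0082. The gene has close copies, among them CSNK1A1L, whose RNA could bind the same probes, so the split between them is uncertain. CSNK1A1L itself had all X5050 values below all DMSO values (-0.16, SE 0.087, adjusted p = 0.460 in limma).

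Among 9 measured genes of the casein kinase 1 family, its anchors, ERK and GSK3, 0 passed, with 3 above and 6 below 0 and a median of -0.10. CSNK1G2, a membrane-bound family member, was the furthest from 0 at -0.31 (SE 0.13, adjusted p = 0.322 in limma). Culture 2 weighed most there (-0.66, against 0.017 and -0.28), and without it the change was -0.13. GSK3B, which phosphorylates the beta-catenin degron that beta-TrCP reads, was higher in each culture (0.22, 0.12 and 0.15), with a change of 0.16 and an adjusted p of 0.456 in limma.

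**Figure D3:**
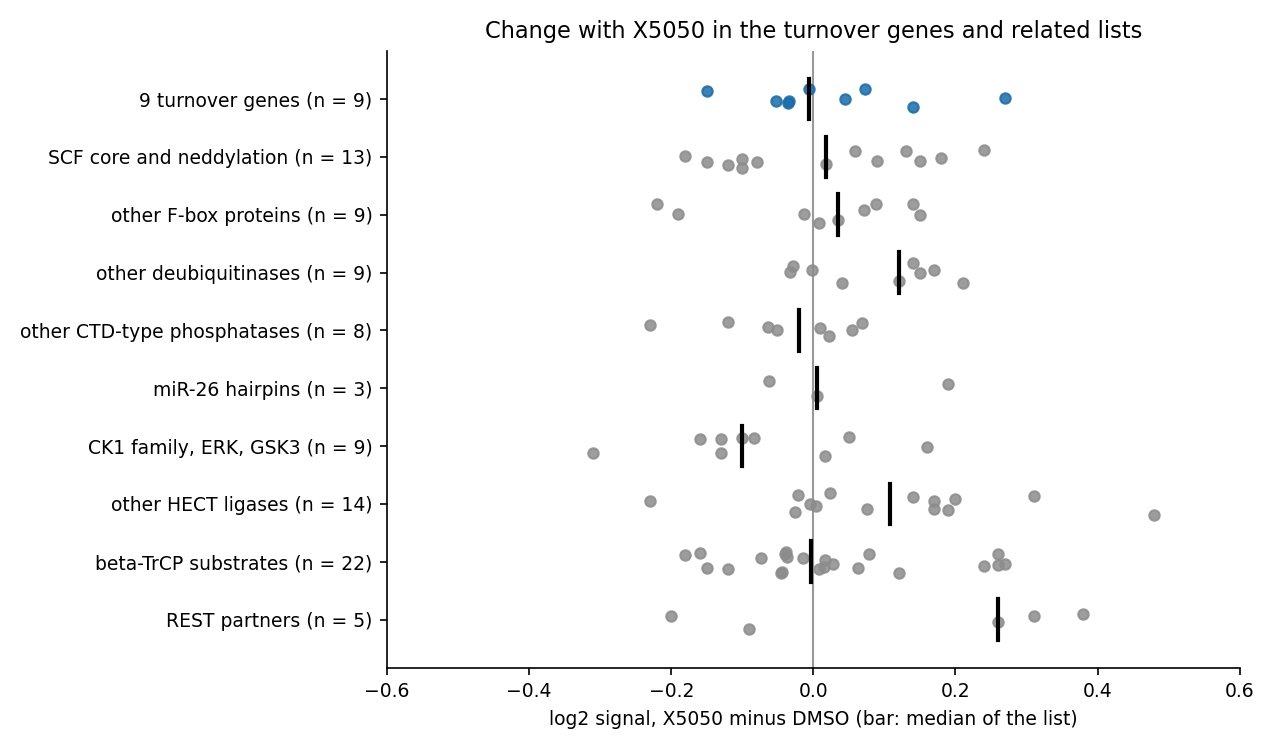
Log2 change with X5050 of each measured gene (points) in the 9 turnover genes and in 9 related lists, with the median of each list as a bar. The turnover genes sit around 0, between -0.15 and 0.27, and HERC1 at 0.48 in the HECT ligase list is the point furthest to the right.

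HUWE1 was the member with the largest difference. It encodes a very large HECT-type ubiquitin ligase whose known substrates include MCL1 and N-Myc. Its log2 signals were 9.61, 9.75 and 9.42 with DMSO and 9.80, 10.15 and 9.65 with X5050. Each culture was higher with the compound, by 0.19, 0.41 and 0.23, but the treatments overlapped, since culture 2 started highest and culture 3 lowest. The change was 0.27 (1.21-fold, SE 0.092, 95% interval 0.063 to 0.48, n = 3 cultures). It did not pass in limma (adjusted p = 0.215, unadjusted p = 0.0170), nor without the pairing (adjusted p = 0.651). An exact sign-flip permutation test over 3 cultures could not go below 0.25. The change stayed between 0.21 and 0.32 in every alternative run.

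Of 14 other measured HECT ligases 0 passed the threshold and 10 were above 0, where 52.8% of all tested genes were, with a median of 0.11. At an unadjusted p under 0.05 in limma there were 2 (14.3%, beside 14.5% of all probe sets). HERC1, another giant ligase of the family, was higher by 0.48, 0.51 and 0.44 in cultures 1, 2 and 3. All its X5050 values (8.03, 8.41 and 8.05) lay above its DMSO values (7.55, 7.90 and 7.62), with a change of 0.48 (1.39-fold, SE 0.086, adjusted p = 0.0631 in limma). NEDD4L, a ligase of membrane channels, stood at 0.31 (SE 0.088, adjusted p = 0.161) and WWP1 at 0.19 (SE 0.090, adjusted p = 0.380).

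HUWE1 and HERC1 are long genes, and the median change with X5050 was higher among the longest genes of the table. Genes were sorted into 10 groups of equal size by their span in GRCh38.p14. The median log2 change was between -0.013 and 0.0042 in the 7 groups of shorter genes and 0.023, 0.039 and 0.071 in the 3 groups of longer ones. HUWE1 (155 kb) falls in the group of the longest genes, where 15.0% of 1839 genes had a higher change, and HERC1 (225 kb) was exceeded by 3.37% of them. HERC2 (211 kb), also there, stood at 0.17 and was exceeded by 28.5%. BTRC and USP15, in the same group, were exceeded by 57.3% and 49.0%. CTDSPL, in the group below it, was exceeded by 89.3%. HUWE1 was taken up as the member with the largest change and HERC1 for its small p. A high place in the span group follows in part from that choice. The part of gene span in the HUWE1 and HERC1 differences was not tested.

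**Figure D4:**
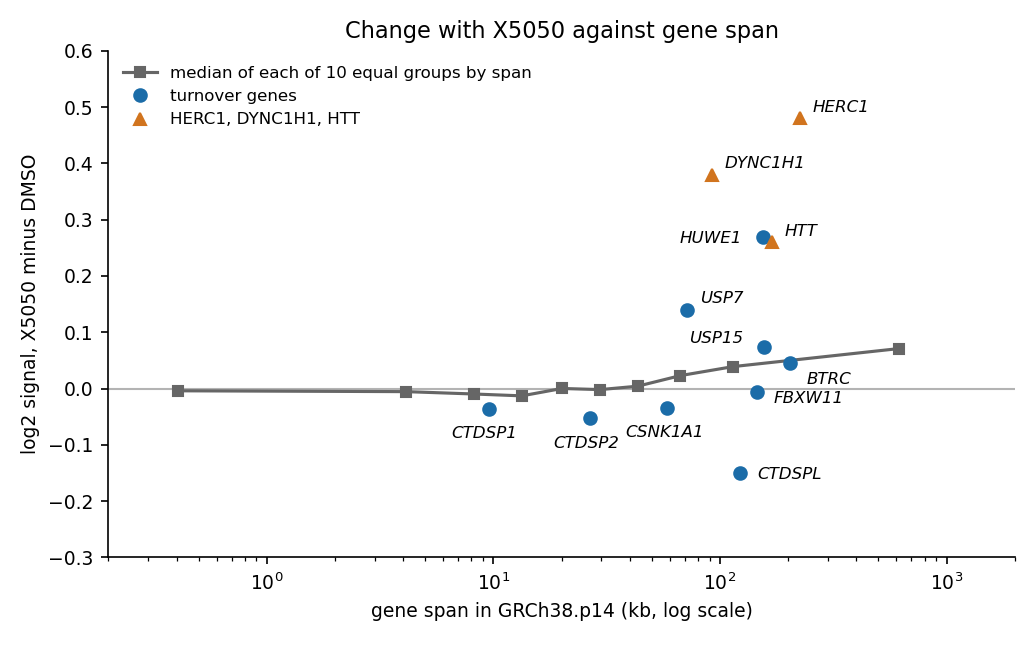
Log2 change with X5050 against gene span on a log scale, for the 9 turnover genes (circles), for HERC1, DYNC1H1 and HTT (triangles), and as the median of each of 10 equal groups of the tested genes by span (squares, drawn at the geometric middle of the group's spans). The medians reach 0.071 for the longest genes, and HUWE1 at 0.27 lies above the median of its group. HERC2 is not drawn.

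REST mRNA, the context for all of these, had log2 signals of 8.48, 8.37 and 8.25 with DMSO and 8.39, 8.22 and 8.33 with X5050. The treatments overlapped and the cultures disagreed in sign (-0.092, -0.16 and 0.079). The paired change was -0.057 (SE 0.092, 95% interval -0.27 to 0.16, adjusted p = 0.855 in limma). Of 5 measured genes for proteins known to protect, hold or transport REST, 0 passed. In each culture 3 were higher and 2 lower, where 18.0% and 17.5% of all probe sets were. The higher ones were DYNC1H1, the dynein heavy chain (0.38, SE 0.089, adjusted p = 0.113 in limma), PRICKLE1, which binds REST and helps it enter the nucleus (0.31, SE 0.088, adjusted p = 0.160), and HTT, which holds REST in the cytoplasm (0.26, SE 0.089, adjusted p = 0.226). The lower ones were TERF2, a telomere protein that protects REST (-0.050, -0.17 and -0.052 in cultures 1, 2 and 3, with all X5050 values below all DMSO values), and the dynactin subunit DCTN1 (-0.11, -0.30 and -0.19). DYNC1H1 spans 91.9 kb and HTT 169 kb, and both were named for their small p. FBXW11 (145 kb) and CTDSPL (123 kb), in the span group of DYNC1H1, stood at -0.0066 and -0.15. The part of gene span in these changes was not tested.

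Transcripts of other proteins that beta-TrCP marks for degradation gave 0 of 22 past the threshold, with 11 above and 11 below 0 and a median of -0.0031. The smallest p belonged to NFKB1, whose precursor beta-TrCP helps to process (0.26, SE 0.095), the Hippo pathway coactivator YAP1 (0.24, SE 0.089) and the mTOR inhibitor DEPTOR (0.26, SE 0.10). Their adjusted p ran from 0.245 to 0.282 in limma. In this list 3 genes, YAP1 and DEPTOR among them, had all X5050 values above all DMSO values, and 1 had all below. Over all probe sets the treatments did not overlap for 14.9%, in either direction. Among the 22 genes 4 had an unadjusted p under 0.05 in limma (18.2%, beside 14.5% of all probe sets), and all 4 were higher. The fourth of them was BCL2L11, a BH3-only death protein (0.27, SE 0.12).

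The SD of the 3 culture means, each over both treatments, was largest in CTDSPL, as given above, followed by HUWE1 (0.21) and CTDSP2 (0.19) and was smallest for CSNK1A1 (0.054). The median of the 9 was 0.13, where all tested genes had 0.095. In limma 0 of the 9 passed for a difference between cultures, and 2.93% of all probe sets did. CTDSPL and HUWE1 had the smallest values (adjusted p = 0.157 and 0.195 in limma). CTDSPL was highest in culture 1 and HUWE1 in culture 2, while BTRC (9.05) and CTDSP1 (6.49) had their highest mean in culture 3.

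Genes with the most similar pattern over the 6 arrays were sought by the root mean square difference of log2 profiles centred on their own means, among 15550 genes. The nearest to HUWE1 was RAB3IP, at 0.040, against a spread of 0.22 of HUWE1 around its mean, and RAB3IP changed by 0.31 with X5050. The match was made on the same 6 arrays, so a change near that of HUWE1 follows from it. The nearest to CTDSPL was ZNF185 (0.050, against a spread of 0.25), to BTRC SGSM2 (0.041, against 0.16) and to CTDSP2 SIL1 (0.064, against 0.20). USP7 was nearest to PLEKHA5 (0.015), CTDSP1 to FADD (0.013), USP15 to HSPA14 (0.021), FBXW11 to NAT16 (0.017) and CSNK1A1 to CLEC1B (0.014). The median distance from any gene to its nearest was 0.024, so a match this close is common among 6 arrays.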

How the data were processed

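Total RNA (100 ng per sample) was labelled with the Affymetrix whole-transcript kit for 1 array per sample, per the labels. The authors deposited log2 signals, 1 per probe set, made with RMA and Partek per the submitters' processing notes. No version, setting or genome build of the array is given in the sources used here. RMA brings arrays towards a common distribution and compresses changes of dim probe sets. The deposited arrays still differed somewhat, with lower quartiles between 4.05 and 4.21. Of 33297 probe sets 19460 carry 1 gene symbol in the platform annotation and were tested, 1754 carry several and 12083 are not listed there.

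The treatments were compared by limma 3.58.1 (R 4.3.3, lmFit and eBayes, two-sided), with the culture as a block and Benjamini-Hochberg adjustment over 19460 probe sets at a threshold of 0.05. After group means were subtracted, DMSO and X5050 arrays with the same number correlated at 0.365, 0.297 and 0.255. Those with different numbers correlated at -0.236 to -0.052. Subtracting a mean of 3 arrays pushes these below 0 where the same-number values are positive, so they are not separate evidence. The numbers, which the design text ties to 3 cultures, were taken to pair the samples. An exact permutation test of 3 arrays against 3 has 0.1 as its smallest p. The number of arrays limits the precision.

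The members and the related lists were chosen with earlier results of these data known. Named were the members, REST and, from each related list, the genes past the threshold or else the 3 with the smallest p (2 for cell type markers). BCL2L11, TERF2, DCTN1, HERC2, ACTA2, TAGLN and the markers named for their signal level were chosen outside this rule, after their values were seen. The test between cultures and the grouping by gene span were chosen after values were seen, and marker genes without a single-symbol probe set were not analysed here. Of 5 astroglial markers 0 passed, led by S100B (0.20) and ALDH1L1 (0.19). Of 10 neural stem cell markers 0 passed, led by NES (-0.42) and MSI1 (-0.23), and of 2 pluripotency markers 0 passed (DPPA4 -0.32, LIN28A 0.0032). In limma, SNAP25 of 9 neuronal markers rose (0.66, adjusted p = 0.0328, and 0.366 without the block) and LUM of 10 mesenchymal markers fell (-1.09, adjusted p = 0.0386, and 0.629 without the block). Without culture 3 neither passed (adjusted p = 0.194 and 0.0763 in limma). Of the 10 mesenchymal markers 9 were below 0, and 6 were lower in each culture, as were 17.5% of all probe sets. At an unadjusted p under 0.05 in limma 5 of them were lower (50.0%, beside 14.5% of all probe sets in either direction). The fits were tested on simulated data. Figures were made in matplotlib 3.10.9 (Python 3.11.15).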

Additional observations from a re-analysis of the deposited data

How the results depend on the processing

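Across the 8 alternatives (no replicate block, arrays centred on their medians, quantile normalization again, no dim probe sets, the median of a symbol's probe sets, and each culture left out) 0 of the 9 members passed the threshold in limma. The count over all probe sets was 97 with the replicate block and 0 without it, 51 after quantile normalization, and 0 to 346 with 1 culture left out. The members' median change was -0.0066 and ranged from -0.014 to 0.055 with 1 culture left out, the highest without culture 3. Signs turned only for values near 0. FBXW11 stood at 0.020 and MIR26A1 at -0.0041 after quantile normalization, and MIR26A1 at -0.014 and LIN28A at -0.016 with arrays centred. With 1 culture left out BTRC ranged from -0.11 to 0.19, FBXW11 from -0.022 to 0.0096, CTDSP1 from -0.084 to 0.037, CTDSP2 from -0.23 to 0.080, CSNK1A1 from -0.058 to 0.0082, MIR26A1 from -0.056 to 0.070, LIN28A from -0.093 to 0.059 and UBLCP1 from -0.00039 to 0.11. LUM did not pass after quantile normalization (adjusted p = 0.0517 in limma). The cause of these moves was not tested. The replicate block changed the call of no other named gene than SNAP25 and LUM.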
